A study of Mus musculus with 36 samples.

Results

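Replication-dependent histone genes, which supply most of the histone protein that new chromatin needs, were followed in 3 mouse lymphoma cell lines before and after nutlin-3a. They were taken as every gene whose symbol starts with Hist1h, Hist2h, Hist3h or Hist4h and that held 10 or more read counts over the 36 libraries together. Of the 27179 genes in the count table, 69 had such a symbol and 64 passed. Hist2h2ab with 10 counts and Hist1h4j with 11 lay just inside the threshold, and Hist1h3h and Hist1h2ba with 9 counts each lay just outside it. The other genes left out were Hist1h1t with 4 counts, Hist1h2aa with 3 and Hist1h2af with 0. The 64 genes were 5 of the linker histone H1, 17 of H2A, 18 of H2B, 11 of H3 and 13 of H4. By symbol, 50 of them belonged to the Hist1 cluster on chromosome 13 and 10 to the Hist2 cluster on chromosome 3. The Hist3 cluster on chromosome 11 held 3, and Hist4h4 was the single member of Hist4. Hist1h2al (chr13:51200084-51203066) lay far from the other Hist1 genes on that chromosome. All 64 were found in the RefSeq annotation of GRCm38.p6, which lists Hist3h2bb-ps and Hist1h2al as pseudogenes. Because the choice used the summed counts, the summed level of the genes is a description of what was chosen.

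The lines AH47A, 287 and 621 are lymphoma cells of Em-myc background, a mouse strain in which an immunoglobulin enhancer drives a Myc transgene and B cell lymphomas arise. Each line expressed a negative control construct or 1 of 5 mutants of TRP53, called human in the series' design text: V170M, I192S, R246Q, R270H or G280. Every group shared the Em-myc background. Each combination was left untreated or was given 5 µM nutlin-3a, which releases p53 from its inhibitor MDM2, for 12 hours together with 25 µM of the caspase inhibitor QVD-OPH. The sources used here do not say whether untreated cultures received QVD-OPH, so an effect of nutlin and one of the caspase inhibitor cannot be told apart. With 12 groups by construct and treatment, each line gave 1 library to every group (n = 3), which gave 6 untreated and 6 nutlin libraries per line. No label names a separate culture of the same line and group, so the p-values below measure the spread between these libraries, with the 6 constructs serving as repeats within a line.

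The 36 libraries held 5404113 to 10718302 gene counts; the medians were 8472641 for the 18 untreated and 7364609 for the 18 nutlin ones. Counts on the mouse Trp53 gene were higher in the mean of the mutants than in the control before treatment (log2 2.32 ± 0.22 SE, edgeR adjusted p = 7.82e-06). The p53 target Cdkn1a rose in all lines after nutlin, by 8.27 ± 0.23 in AH47A, 6.58 ± 0.17 in 287 and 5.34 ± 0.17 in 621 (log2 ± SE, edgeR adjusted p = 3.87e-17 or smaller). The 7 B cell markers summed to medians of 1080 to 1582 CPM (read counts scaled to a common library total) over the 6 sets of line and treatment, against at most 44.5 for the 5 myeloid, 18.4 for the 5 T cell, 2.02 for the 4 erythroid and 2.40 for the 4 fibroblast markers. Of these, Cd4 was at 0 in every library, Itgam of the myeloid list rose in all lines, and Zap70 of the T cell list rose in 287. A pair of libraries stood apart in RNAs that carry no poly(A) tail, such as the RNA components of RNase MRP and of the 7SK particle. The 20 such RNAs in the table summed to 91.2 CPM in the 621 R270H nutlin library and to 30.0 CPM in the AH47A V170M nutlin library, against at most 16.1 CPM in any of the others. Results that rest on those 2 libraries are given with and without them.

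Most histone genes of this kind are read only while DNA is being copied. Their messages are among the few in animal cells that end without a poly(A) tail: a short stem-loop at the 3′ end takes its place and is held by the stem-loop binding protein SLBP. NPAT, a substrate of cyclin E and CDK2, turns the gene clusters on at the start of S phase, a cut guided by the U7 small nuclear RNA makes the 3′ end, and the messages are destroyed quickly when replication stops. Longer, polyadenylated messages of some of these genes are also known, made from a poly(A) signal downstream of the stem-loop, and are described in cells that have left the cycle. p53, through p21 (the product of Cdkn1a), holds cells before S phase.

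The stem-loop is shown here because it is the feature that sets this class of messages apart. It also marks which annotated transcripts run past it. In GENCODE M21 (GRCm38), 62 of the 64 genes had a coding transcript of the same name. A stem-loop of 16 bases, allowing 1 mismatch, was found after the stop codon in 45 of them, at 21 to 58 bases (median 31) from the stop. Several of the others, such as Hist1h4k and Hist1h1b, had no annotated bases after the stop codon, so none could be found there. It came in 8 spellings, of which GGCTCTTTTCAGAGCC in 26 genes, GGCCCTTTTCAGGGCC in 7 and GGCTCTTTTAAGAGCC in 5 were the most frequent. The sites of genes that the results turn on follow, with the stem-loop in capitals and 5 bases on each side.
Hist1h1c, chr13:23739507-23739532, plus strand: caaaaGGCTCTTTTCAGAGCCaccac
Hist3h2a, chr11:58955167-58955192, plus strand: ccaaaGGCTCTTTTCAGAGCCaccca
Hist3h2ba, chr11:58949344-58949369, plus strand: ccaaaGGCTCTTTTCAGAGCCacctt
Hist2h3c1, chr3:96247322-96247347, plus strand: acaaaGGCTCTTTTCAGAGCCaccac
Hist1h4i, chr13:22040961-22040986, minus strand: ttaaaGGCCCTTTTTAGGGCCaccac

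Annotated transcripts went on for 100 bases or more after the stem-loop in 22 genes, and 15 of these held AATAAA or ATTAAA, the usual poly(A) signals, after it. The 22 genes carried 55.6% of all counts of the 64. The counted length of some was shorter than the annotated transcript, such as 381 against 1679 bases in Hist1h2bh and 312 against 820 in Hist1h4c. That share therefore does not tell how many counts lay past the stem-loop. Hist1h1c ran on for 840 bases, Hist3h2a for 1643, Hist2h3c1 for 1167 and Hist1h4i for 330. Hist1h2bc and Hist2h2be, both among the 5 genes with the most counts, showed no such letters in their longest annotated transcript. Most of the genes share sequence with other annotated genes: 61 of the 64 shared at least 1 window of 50 bases with another gene, and 33 shared 50% or more of their windows. Any annotated gene counted as a partner, on either strand and of any class. The main partner was Gm20634 for Hist2h3c1 and Trim17 for Hist3h2a, for example. The sources used here do not say how reads matching several genes were counted, so the counts of those 33 are uncertain. Among the 5 genes with the most counts the shared part was 0% in Hist2h2be, 8.54% in Hist1h1c, 28.9% in Hist1h4i, 30.6% in Hist1h2bc and 31.5% in Hist3h2a, whereas Hist2h3c1 was shared throughout.

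Promoters are shown for 4 genes from the classes H2A, H2B, H1 and H4, since the classes are known to be read from different promoter elements. RefSeq (GRCm38.p6) gave a window of 250 bases before to 50 after the start for 57 of the 64 genes. The CCAAT box (CCAAT, either strand) stood in 48 of the 57 (84.2%), against 37.4% of 32851 promoters of the same length. It was in all 45 windows of H1, H2A, H2B and H3 but in 3 of 12 of H4. TATAAA (either strand) stood in 32 (56.1%, against 13.6% of all promoters). The octamer ATTTGCAT (either strand), which POU proteins bind, stood in 11 (19.3%, against 1.74%), 6 of them H2A and 5 H2B. The consensus half-site of p53 was found in 5 (8.77%, against 8.36%), and a pair of half-sites 0 to 13 bases apart in 0 (against 0.073%). The 200 bases before the start are printed 5′ to 3′ on the strand of the gene, with the letters of these 3 motifs, on either strand, in capitals.
Hist3h2a, chr11:58954485-58954684, plus strand: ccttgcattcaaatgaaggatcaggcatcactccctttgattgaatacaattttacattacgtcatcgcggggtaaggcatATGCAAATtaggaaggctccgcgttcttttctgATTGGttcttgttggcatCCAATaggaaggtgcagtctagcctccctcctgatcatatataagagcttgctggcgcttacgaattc
Hist3h2ba, chr11:58948711-58948910, plus strand: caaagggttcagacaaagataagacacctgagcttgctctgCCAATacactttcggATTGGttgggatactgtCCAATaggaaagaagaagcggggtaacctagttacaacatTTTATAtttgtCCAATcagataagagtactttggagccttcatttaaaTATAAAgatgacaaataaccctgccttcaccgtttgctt
Hist1h1c, chr13:23738607-23738806, plus strand: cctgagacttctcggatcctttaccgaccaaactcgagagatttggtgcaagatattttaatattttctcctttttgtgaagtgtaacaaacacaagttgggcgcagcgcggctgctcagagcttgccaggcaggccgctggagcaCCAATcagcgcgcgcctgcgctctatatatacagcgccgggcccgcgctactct
Hist1h4i, chr13:22041363-22041562, minus strand: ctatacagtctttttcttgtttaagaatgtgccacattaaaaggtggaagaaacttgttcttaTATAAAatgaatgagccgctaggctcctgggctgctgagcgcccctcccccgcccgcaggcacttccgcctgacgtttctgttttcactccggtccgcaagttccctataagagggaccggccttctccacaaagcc

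The 64 genes held 82160 counts, 0.0284% of all counts. Hist1h2bc alone held 24.8% of them, the 3 most counted genes 59.7% and the 5 most counted 78.5%, while the median gene had 207 counts over all 36 libraries. In AH47A the summed counts of the 64 genes, as unscaled CPM, were 128 to 148 (median 137) in the 6 untreated libraries and 951 to 1179 (median 1042) in the 6 nutlin libraries. In 287 they were 67.6 to 81.1 (median 73.1) untreated and 239 to 332 (median 263) with nutlin. In 621 they were 63.0 to 75.2 (median 66.1) untreated and 154 to 224 (median 169) with nutlin. The nutlin libraries thus lay above all untreated libraries of the same line in each of the 3 lines. Set against the untreated library of the same construct, the sum was 6.92 to 9.19 times as high in AH47A over the 6 constructs, 3.32 to 4.10 times in 287 and 2.41 to 3.21 times in 621. The highest fold in AH47A came from the negative control and the highest in 287 and 621 from I192S. In bulk RNA a change in the share of cells that carry a message and a change in message per cell cannot be told apart. The 59 genes outside the 5 most counted went from a median of 38.4 to 181 CPM in AH47A, from 29.8 to 53.8 in 287 and from 24.5 to 45.1 in 621.

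**Figure D1:**
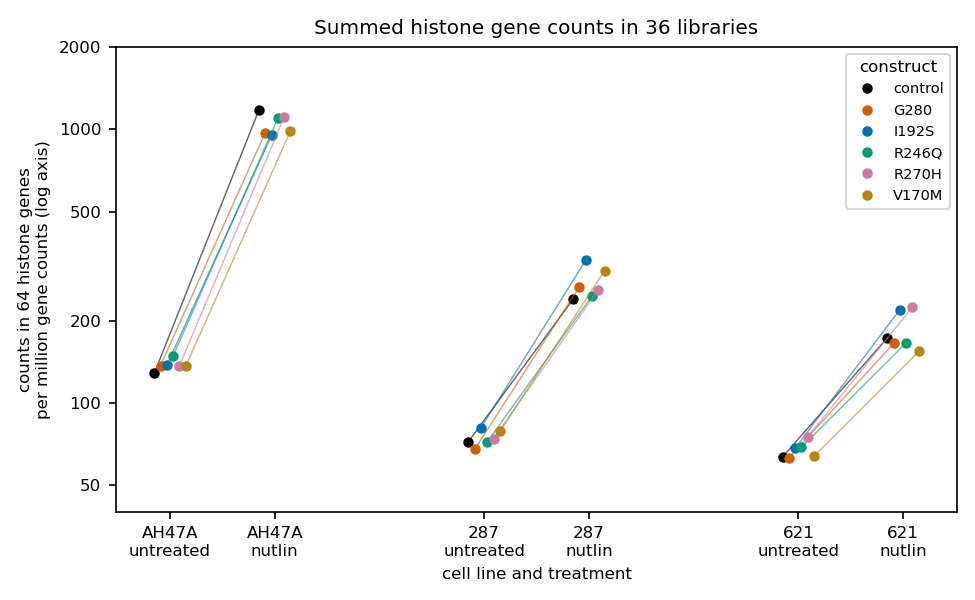
Summed counts of the 64 histone genes as unscaled CPM (log axis) in each of the 36 libraries, by cell line and treatment. Points are libraries, coloured by construct, and lines join the untreated and nutlin library of a construct; in AH47A the nutlin libraries sit between 951 and 1179, in 287 between 239 and 332 and in 621 between 154 and 224, each above the untreated libraries of that line.

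After a filter on low counts, 43 of the 64 genes were tested beside 12321 genes in all. A gene was called where the adjusted p of edgeR's quasi-likelihood test (Benjamini-Hochberg over the 12321 genes) was under 0.05, and log2 fold changes are given ± standard error. In AH47A 41 of the 43 were called higher after nutlin and 0 lower, where 21.4% of all genes tested were higher and 22.2% lower. In 287 27 were higher and 0 lower (36.2% and 35.7% of all genes), and in 621 21 were higher and 0 lower (26.4% and 28.6%). The median log2 change of the 43 was 2.44 in AH47A, 1.42 in 287 and 1.04 in 621, against -0.01, 0.00 and -0.03 over all genes. With genes at 0 in a group set to their bound, the medians were 2.44, 1.42 and 1.04. In the mean of the lines 40 of the 43 were higher and 0 lower (34.3% and 37.4% of all genes); Hist1h2ap, Hist1h2ak and Hist1h4d made no call. The filter has to be read beside these counts. Only 17 of the 43 would have passed it on the 18 untreated libraries alone, so the others entered through libraries in which they were high. Neither the share nor the median change of those others is support for a direction. Of the 17, 16 were higher in AH47A, 10 in 287 and 12 in 621, and 0 were lower in any line. The 17 had median log2 changes of 1.95 in AH47A, 0.89 in 287 and 1.05 in 621. They were Hist1h1c, Hist1h1d and Hist1h1e of H1, and Hist1h2ag, Hist1h2ak, Hist1h2ao, Hist1h2ap and Hist3h2a of H2A. H2B had Hist1h2bc, Hist1h2be, Hist1h2bg, Hist1h2bh and Hist2h2be, H3 had Hist1h3g, Hist2h3c1 and Hist2h3c2, and H4 had Hist1h4i. Counts and medians by class, sequence feature and construct below use all 43, so the same limit holds for them.

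The count for the mean of the lines depends on what is taken as the unit. With the counts of a line and treatment summed over constructs, so that 3 lines are the repeats, 20 of the 43 were higher, and among those lost was Hist1h4i. Without AH47A the count was 23, with 28 of the 40 genes still tested. The count for 621 rested in part on its R270H nutlin library: without that library it was 14, and without both libraries that stood apart in tail-less RNAs it was 13. With all 36 libraries 26.4% of all genes were higher in 621 and 34.3% in the mean of lines. The 14 and 13 of 621 were near that background. Shares of all genes in the reduced fits are not given here. Without both libraries the AH47A count was again 41, with Hist1h3e lost and Hist2h2ac, which entered the test, added. The 287 count was 27, and the mean of lines fell from 40 to 38. The 8 genes that 621 lost were Hist1h1d, Hist1h2bg, Hist1h2bq, Hist2h2aa1, Hist1h1b, Hist1h2bp, Hist2h3b and Hist1h2bb. The part of the tail-less RNAs in the histone counts was not tested beyond these values.

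As scaled CPM without filter or test, all 6 nutlin libraries of AH47A lay above the 6 untreated ones in 37 of the 64 genes. Those of 287 did so in 16 and those of 621 in 9, and 0 genes lay wholly below. The share over all genes was not counted, so these numbers describe the 64 genes and are set against no background. For the 21 genes too low to test, the summed counts went from 119 in untreated to 333 in nutlin libraries of AH47A, from 151 to 161 in 287 and from 127 to 148 in 621. These were 7 genes of H2A with 10 to 101 counts over all libraries, 5 of H2B with 24 to 136, 2 of H3 with 46 and 63, and 7 of H4 with 11 to 107.

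**Figure D2:**
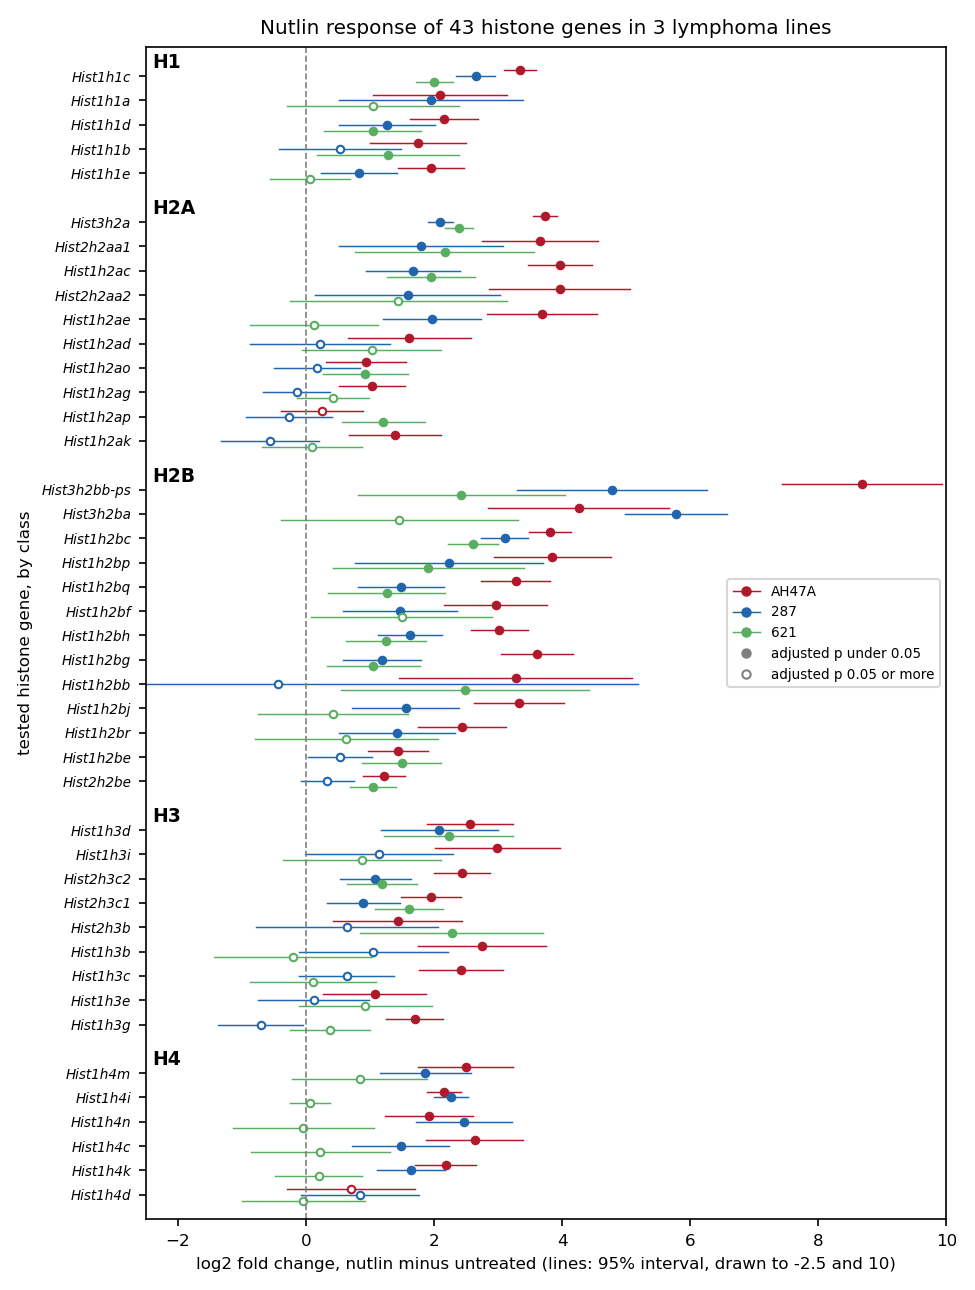
Log2 fold change, nutlin minus untreated, of the 43 tested histone genes in AH47A, 287 and 621, grouped by class. Points are estimates over the 6 constructs of a line, bars are 95% intervals, and filled points have an edgeR adjusted p under 0.05; 41 points are filled in AH47A, 27 in 287 and 21 in 621, and 0 of the filled points are below 0. The value of Hist3h2bb-ps in AH47A is set against 0 untreated counts.

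Linker histone H1 binds where DNA enters and leaves the nucleosome, and all 5 of its genes were tested. In AH47A 5 were higher after nutlin, in 287 4 and in 621 3 (21.4%, 36.2% and 26.4% of all genes). Hist1h1c (chr13:23738807-23739531 in RefSeq, the gene of H1.2) held most of the counts of this class. In AH47A its level, as CPM scaled by TMM (trimmed mean of M values), was 21.96 to 30.2 CPM (median 23.8) untreated and 232 to 282 CPM (median 248.6) with nutlin. In 287 it was 4.71 to 6.39 CPM (median 5.53) untreated and 23.9 to 46.8 CPM (median 35.1) with nutlin. In 621 it was 7.11 to 9.30 CPM (median 8.51) untreated and 25.9 to 51.0 CPM (median 30.8) with nutlin. Every nutlin library of a line was thus higher than every untreated one. Hist1h1c rose by 3.34 ± 0.12 in AH47A, 2.65 ± 0.15 in 287 and 2.002 ± 0.142 in 621 (log2, edgeR adjusted p = 2.13e-17, 1.33e-14 and 1.26e-11). Hist1h1d rose in all lines, by 2.16 in AH47A, 1.26 in 287 and 1.04 in 621. Hist1h1e rose by 1.95 in AH47A and 0.83 in 287, and its change in 621 was 0.06 ± 0.30 (edgeR adjusted p = 0.884). Hist1h1a rose in AH47A and 287, and Hist1h1b in AH47A and 621. The 621 call of Hist1h1b was lost in 20 leave-outs of a library or line, with DESeq2, without the filter and in a fit of 621 alone.

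H2A pairs with H2B in the dimers that flank the H3-H4 core of the nucleosome. Of 10 tested H2A genes 9 were higher in AH47A, 5 in 287 and 5 in 621 (21.4%, 36.2% and 26.4% of all genes). Hist3h2a (chr11:58954685-58955192) had the most counts. It was at 11.6 to 12.99 CPM (median 11.9) untreated and 141 to 180 CPM (median 160) with nutlin in AH47A. In 287 Hist3h2a was at 7.64 to 12.2 CPM (median 8.90) untreated and 32.2 to 48.4 CPM (median 38.6) with nutlin. In 621 it was at 4.13 to 5.96 CPM (median 4.66) untreated and 22.1 to 29.3 CPM (median 26.1) with nutlin. The untreated and nutlin libraries were separate in every line. The rise of Hist3h2a was 3.74 ± 0.09 in AH47A, 2.10 ± 0.10 in 287 and 2.39 ± 0.11 in 621 (log2, edgeR adjusted p = 4.31e-16 or smaller). Hist1h2ac rose by 3.97 ± 0.24 in AH47A, from 0.255 to 1.25 CPM untreated to 9.51 to 14.9 CPM with nutlin, and by 1.68 in 287 and 1.95 in 621. Hist1h2ae rose by 3.69 ± 0.42 in AH47A and 1.97 ± 0.38 in 287, while its 12 counts in 621 nutlin libraries stood beside 15 untreated (log2 0.12 ± 0.49). Hist2h2aa1 rose in all lines, and its copy Hist2h2aa2 in AH47A and 287, but every window of both is shared with another gene. The call of Hist2h2aa2 in 287 was lost in 20 of the fits that left out a library or line, and also with DESeq2, without the filter and in a fit of 287 alone.

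Not every H2A gene moved in the same lines. Hist1h2ap was at 2.17 to 6.36 CPM (median 4.35) untreated and 2.20 to 8.62 CPM (median 4.88) with nutlin in AH47A. In 287 Hist1h2ap was at 2.68 to 5.16 CPM (median 4.26) untreated and 1.15 to 5.42 CPM (median 3.63) with nutlin. The 621 libraries had 1.14 to 4.42 CPM (median 3.29) untreated and 3.07 to 10.5 CPM (median 6.63) with nutlin. The libraries of the groups overlapped in all lines. Hist1h2ap rose in 621 (1.21 ± 0.32, edgeR adjusted p = 0.00218), with 0.25 ± 0.31 in AH47A and -0.27 ± 0.33 in 287 missing the threshold (edgeR adjusted p = 0.559 and 0.471). The mean of lines was 0.40 ± 0.18 (edgeR adjusted p = 0.0568), and passed with DESeq2 (0.41, DESeq2 adjusted p = 0.0474) and with library size alone as the scale (0.42, edgeR adjusted p = 0.0411). Its windows are 93.1% shared, mainly with Hist1h2ao, so these counts are uncertain between the copies. Hist1h2ao rose by 0.93 in AH47A and in 621, Hist1h2ag, Hist1h2ak and Hist1h2ad rose in AH47A.

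All 13 tested H2B genes were higher in AH47A, 10 in 287 and 9 in 621 (21.4%, 36.2% and 26.4% of all genes). Hist1h2bc (chr13:23684199-23692480), which has the most counts of the 64 genes, was at 18.7 to 22.2 CPM (median 20.5) untreated and 198 to 393 CPM (median 284) with nutlin in AH47A. In 287 Hist1h2bc was at 7.40 to 9.999 CPM (median 8.67) untreated and 64.3 to 82.9 CPM (median 72.2) with nutlin. In 621 it was at 4.82 to 7.68 CPM (median 6.40) untreated and 26.1 to 54.5 CPM (median 35.9) with nutlin. The groups did not overlap in any line. Hist1h2bc rose by 3.81 ± 0.16 in AH47A, 3.10 ± 0.18 in 287 and 2.61 ± 0.19 in 621 (log2, edgeR adjusted p = 7.09e-15, 1.07e-13 and 8.97e-11).

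Hist2h2be (chr3:96221072-96223738) moved less. In AH47A it was at 22.4 to 30.4 CPM (median 28.4) untreated and 46.3 to 74.5 CPM (median 66.9) with nutlin. In 287 Hist2h2be was at 6.30 to 13.6 CPM (median 8.23) untreated and 6.28 to 22.4 CPM (median 9.83) with nutlin. For 621 the levels were 10.95 to 17.2 CPM (median 14.3) untreated and 21.1 to 34.1 CPM (median 31.4) with nutlin. The groups were separate in AH47A and 621 and overlapped in 287. The rise of Hist2h2be was 1.22 ± 0.16 in AH47A and 1.04 ± 0.18 in 621 (edgeR adjusted p = 1.11e-06 and 1.85e-05), and in 287 the change was 0.33 ± 0.20 (edgeR adjusted p = 0.144), which passed in a fit of the 12 libraries of 287 alone (0.34, edgeR adjusted p = 0.0413). Among the lower H2B genes, Hist1h2bg rose by 3.61 in AH47A, 1.18 in 287 and 1.05 in 621, Hist1h2bh by 3.02, 1.62 and 1.25, and Hist1h2bq by 3.27, 1.48 and 1.26 in the same order. Hist1h2bp rose in all lines as well. Hist1h2bj, Hist1h2br and Hist1h2bf rose in AH47A and 287, and Hist1h2be and Hist1h2bb in AH47A and 621. In 621 the call of Hist1h2bb was lost in 8 leave-outs and with DESeq2, and that of Hist1h2bp in 6 leave-outs and in a fit of 621 alone.

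**Figure D3:**
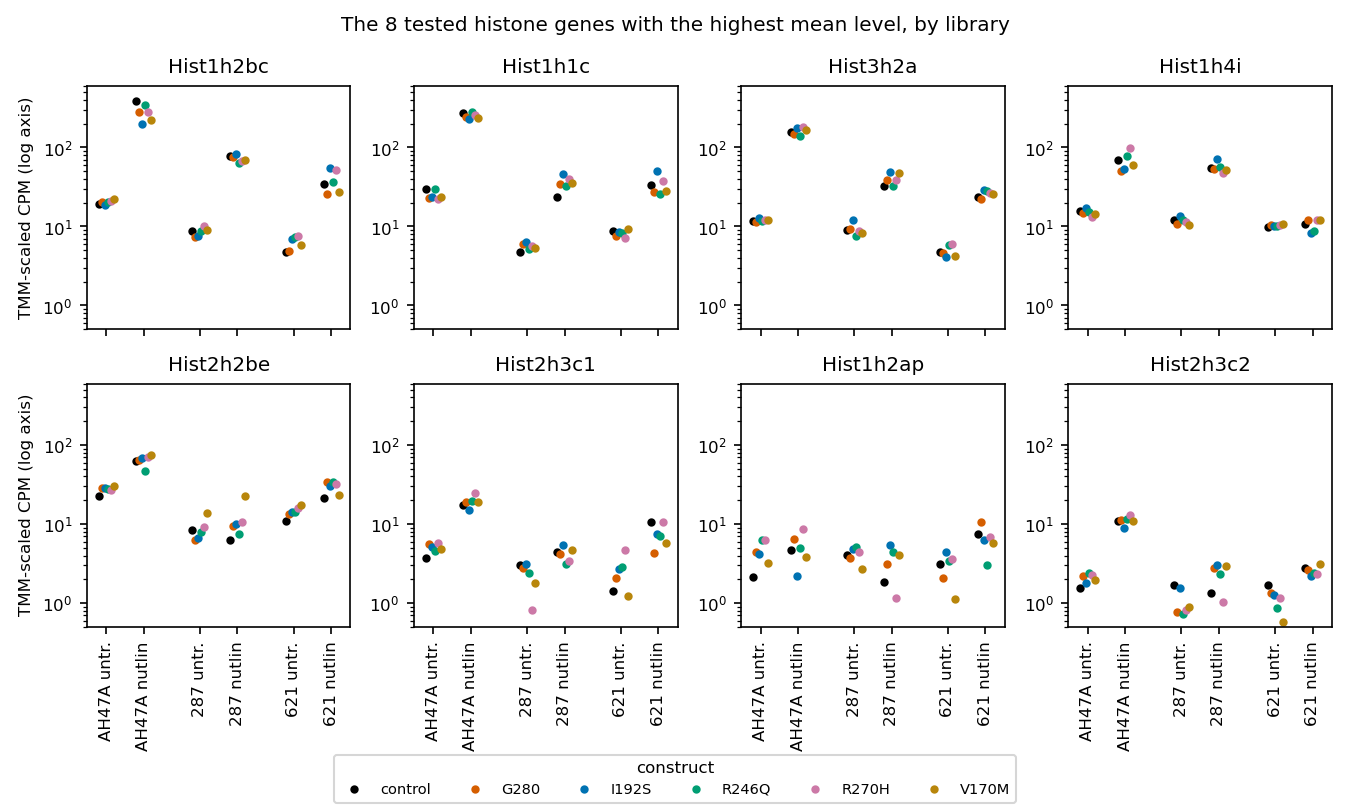
Level of the 8 tested histone genes with the highest mean level, as TMM-scaled CPM on a log axis, in each of the 36 libraries by line and treatment. Points are libraries coloured by construct; Hist1h2bc, Hist1h1c and Hist3h2a are separate between treatments in all 3 lines, Hist1h4i is separate in AH47A and 287 but not in 621, and Hist1h2ap overlaps in all lines.

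The 3 genes of the Hist3 cluster lie next to each other on chromosome 11, between Rnf187 and Trim11. Hist3h2ba (chr11:58948911-58949372) encodes an H2B and Hist3h2bb-ps (chr11:58954048-58954512) is an H2B pseudogene. Both were close to 0 in untreated cells: Hist3h2ba had 1 count in the 6 untreated libraries of AH47A, 5 in 287 and 0 in 621. After nutlin Hist3h2ba had 31 counts in AH47A, 293 in 287 and 1 in 621. It thus had its highest level in 287, at 3.94 to 10.9 CPM with nutlin against 0 to 0.223 CPM untreated, a ratio per total count of 62.5 (95% interval 26.5 to 194, counting error only). In AH47A the ratio was 32.9 (5.48 to 1341), and in 621 both groups were under the floor of 3 counts. Hist3h2bb-ps went the other way between these lines: it had 0 counts untreated and 242 with nutlin in AH47A, at least 85.6-fold higher with a floor of 3 counts over the 6 libraries. In 287 it had 1 and 38 counts (ratio 40.5, 6.84 to 1641) and in 621 2 and 9 (ratio 6.34, 1.31 to 60.3). The edgeR test of a difference between lines gave an adjusted p of 0.0134 for Hist3h2bb-ps and 0.862 for Hist3h2ba.

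Hist3h2a lies within Trim17 (chr11:58954671-58973075), a ubiquitin ligase gene on the same strand, and 31.5% of its windows were shared, most with Trim17. Trim17 held 333 counts over all libraries against 11755 of Hist3h2a. Its change was 1.07 ± 0.43 in AH47A, 0.38 ± 0.30 in 287 and 1.67 ± 0.55 in 621 (log2, edgeR adjusted p = 0.0421, 0.265 and 0.0111). Of the genes on either side, Rnf187 changed by -0.05 in AH47A, -0.43 in 287 and -0.40 in 621, and Trim11 by 0.14, 0.76 and 0.04, of which the values in 287 and that of Rnf187 in 621 passed the test.

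H3 and H4 form the tetramer at the core of the nucleosome and carry most of the modified tails. All 9 tested H3 genes were higher in AH47A, 3 in 287 and 4 in 621, where 21.4%, 36.2% and 26.4% of all genes were higher, so the share in 287 was no more than that of all genes. Hist2h3c1 (chr3:96246685-96247348) was at 3.70 to 5.75 CPM (median 4.95) untreated and 14.9 to 24.8 CPM (median 18.8) with nutlin in AH47A. In 287 Hist2h3c1 was at 0.814 to 3.08 CPM (median 2.57) untreated and 3.09 to 5.42 CPM (median 4.33) with nutlin. In 621 it was at 1.23 to 4.71 CPM (median 2.38) untreated and 4.36 to 10.7 CPM (median 7.35) with nutlin. The groups were separate in AH47A and 287 and met at their edges in 621. Hist2h3c1 rose by 1.95 ± 0.23 in AH47A, 0.89 ± 0.28 in 287 and 1.61 ± 0.26 in 621 (log2, edgeR adjusted p = 8.45e-08, 0.00542 and 7.39e-06).

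Hist2h3c2 (chr3:96238479-96239127), its neighbour in the Hist2 cluster, was at 1.53 to 2.40 CPM (median 2.10) untreated and 8.95 to 13.1 CPM (median 11.2) with nutlin in AH47A. In 287 Hist2h3c2 was at 0.723 to 1.67 CPM (median 0.854) untreated and 1.04 to 3.02 CPM (median 2.55) with nutlin. The 621 libraries had 0.569 to 1.69 CPM (median 1.20) untreated and 2.22 to 3.09 CPM (median 2.49) with nutlin. The groups overlapped in 287 alone. Hist2h3c2 rose by 2.44 ± 0.22, 1.08 ± 0.27 and 1.18 ± 0.27 in AH47A, 287 and 621. Hist1h3d rose in all lines (2.57, 2.08 and 2.23), and Hist2h3b in AH47A and 621. Hist1h3i, Hist1h3b, Hist1h3c, Hist1h3e and Hist1h3g rose in AH47A. The AH47A call of Hist1h3e was lost in 7 leave-outs, with DESeq2 and without the 2 libraries that stood apart, and that of Hist2h3b in 6 leave-outs and with DESeq2. Hist1h3g, at 1.23 to 2.71 CPM untreated and 4.69 to 6.68 CPM with nutlin in AH47A, rose there by 1.70 ± 0.22, and its change was -0.71 ± 0.33 in 287 (edgeR adjusted p = 0.0556) and 0.38 ± 0.31 in 621 (edgeR adjusted p = 0.305).

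H4 is the most conserved of the core histones, and most of its gene copies encode the same protein. Of 6 tested H4 genes 5 were higher in AH47A, 5 in 287 and 0 in 621 (21.4%, 36.2% and 26.4% of all genes). Whether the 0 among 6 genes is a trait of the class was not tested. Hist1h4i (chr13:22040960-22041362) was at 13.2 to 17.4 CPM (median 15.0) untreated and 50.7 to 98.8 CPM (median 64.5) with nutlin in AH47A. In 287 Hist1h4i was at 10.5 to 13.6 CPM (median 11.7) untreated and 48.1 to 71.9 CPM (median 54.3) with nutlin. In 621 it was at 9.90 to 10.7 CPM (median 10.3) untreated and 8.28 to 12.3 CPM (median 11.5) with nutlin. The groups were far apart in AH47A and 287, and in 621 the nutlin libraries reached both below and above the untreated ones. Hist1h4i rose by 2.16 ± 0.13 in AH47A and 2.26 ± 0.13 in 287 (edgeR adjusted p = 2.09e-13 and 7.59e-15). In 621 the change was 0.06 ± 0.15, with a 95% interval of -0.25 to 0.38 (edgeR adjusted p = 0.757). Hist1h4k rose by 2.19 and 1.64, Hist1h4n by 1.92 and 2.47, Hist1h4c by 2.64 and 1.48 and Hist1h4m by 2.49 and 1.87 in AH47A and 287. In 621 these 4 stood at 0.20, -0.04, 0.23 and 0.84, with edgeR adjusted p of 0.661, 0.964, 0.748 and 0.173. The smallest unadjusted p of an H4 gene in 621 was the 0.114 of Hist1h4m in edgeR, so that 0 of the 6 passed without adjustment too.

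Whether the lines responded alike was asked with an F test over the 3 lines. It called 26 of the 43 histone genes, where 60.3% of all genes were called, so the share among the histone genes was close to the background. By class the F test called 2 of 5 H1, 6 of 10 H2A, 8 of 13 H2B, 6 of 9 H3 and 4 of 6 H4 genes. The smallest adjusted p were those of Hist3h2a (1.1e-10), Hist1h4i (6.82e-10) and Hist1h1c (5.13e-06, edgeR). Without AH47A the F test called 6.

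Per length of counted sequence, the order of the levels changed with the treatment. In untreated AH47A the highest median levels per kilobase were those of Hist1h2bc (28.1 CPM per kb) and Hist1h4i (28.0), followed by Hist1h1c (15.2), Hist1h2ap (11.1), Hist2h2be (10.8) and Hist3h2a (5.99). The first 2 did not differ beyond their spread. With nutlin the same 6 genes in AH47A stood in the order Hist1h2bc (390 CPM per kb), Hist1h1c (159), Hist1h4i (120), Hist3h2a (80.4), Hist2h2be (25.6) and Hist1h2ap (12.4). Hist1h2bh (22.6), Hist1h2bg (16.7) and Hist1h4k (15.1) then lay above Hist1h2ap. In 621 with nutlin Hist1h2bc (49.3) was followed by Hist1h4i (21.3), Hist1h1c (19.8), Hist1h2ap (16.9), Hist3h2a (13.1) and Hist2h2be (12.0), of which several lie within the spread of their neighbours. The lengths used are those of the deposited table and exceed the RefSeq span in several genes, such as 1990 against 508 bases for Hist3h2a and 1561 against 725 for Hist1h1c.

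Genes with 100 or more annotated bases after the stem-loop and those without were set side by side, since a tail made downstream would put a message into poly(A) RNA. The sets follow the annotation and do not tell where reads lay, as the counted length of some extended genes is shorter than their transcript. Of the 17 tested genes with such an extension 16 were higher in AH47A, 14 in 287 and 10 in 621, with median log2 changes of 2.57, 1.48 and 1.18. Of the 15 with a stem-loop and under 100 bases after it 14, 7 and 5 were higher, with medians of 2.49, 1.05 and 0.93. The 11 with no stem-loop in an annotated transcript had 11, 6 and 6 higher and medians of 2.19, 1.42 and 1.04. Among these, Hist1h4k, Hist1h2ak, Hist1h1b and Hist1h3i had no annotated bases after the stop codon, and Hist3h2bb-ps had no coding transcript. No stem-loop could be found in them, so this set is not one of genes known to lack it. No difference between these sets was tested. Of the 22 genes with under 50% shared windows 21 were higher in AH47A, 16 in 287 and 14 in 621, and of the 21 with more 20, 11 and 7. Over all genes 21.4%, 36.2% and 26.4% were higher in these lines, and the shares of the genes with short ends and of those with more shared windows in 621 were near that background. The sources used here do not say whether poly(A) RNA was selected.

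Untreated levels were compared between lines, where the calls among the histone genes were in part no more frequent than among all genes. In 287 11 of the 43 were lower than in AH47A and 0 higher, where 29.2% of all genes were lower and 29.7% higher. In 621 18 were lower than in AH47A and 0 higher (29.6% and 29.1% of all genes). The untreated level of Hist1h1c was lower by 2.17 ± 0.15 in 287 and by 1.60 ± 0.14 in 621 than in AH47A, and that of Hist2h2be by 1.69 ± 0.19 and 0.95 ± 0.17 (log2, edgeR adjusted p = 4.18e-05 or smaller). Hist1h2bc was lower by 1.25 ± 0.19 and 1.69 ± 0.20, and Hist3h2a by 0.39 ± 0.11 and 1.29 ± 0.12. Between 621 and 287 2 genes were higher in 621, Hist2h2be (0.74 ± 0.19) and Hist1h1c (0.57 ± 0.17), and 4 were lower, Hist3h2ba, Hist1h2be, Hist1h2bq and Hist3h2a (-0.90 ± 0.12), where 29.7% of all genes were higher and 30.7% lower. The call of Hist3h2ba rests on 5 untreated counts in 287 and 0 in 621, close to the floor of 3 counts. For 4 of the 5 most counted genes AH47A had both the highest untreated median and the largest estimated log2 change with nutlin, while for Hist1h4i the untreated median was highest in AH47A and the estimated change was larger in 287. These comparisons share the untreated libraries of AH47A with its nutlin response, and no relation between them was tested.

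The mutants were then set against the negative control. All mutants were set against the same 3 control libraries, untreated or with nutlin, and their values are therefore not independent of each other. Before treatment 0 of the 43 histone genes were called in the mean of the 5 mutants (0.0162% of all genes), under nutlin 0 (16% of all genes) and in the difference of responses 0 (3.38%). Nor was any called by edgeR for a single mutant in these 15 comparisons or in the F test over the mutants (0.0162% of all genes). Under nutlin 10.5% of all genes were called for G280, 2.66% for I192S, 6.06% for R246Q, 3.64% for R270H and 17.6% for V170M. Untreated it was 0.00812% for every mutant, and for the difference of responses 0.179%, 0.00812%, 0.0243%, 0% and 3.64% in that order. At an unadjusted p under 0.05 there were 0 to 6 of the 43 in each comparison, with 6 for R270H and 5 for V170M under nutlin. DESeq2 called 1, Hist2h2be in V170M under nutlin (log2 0.77, DESeq2 adjusted p = 0.0191).

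That gene gave the smallest edgeR adjusted p of any mutant comparison. Under nutlin Hist2h2be was at 62.1, 6.28 and 21.1 CPM in the control libraries of AH47A, 287 and 621, and at 74.5, 22.4 and 23.5 CPM in those of V170M. Before treatment it was at 22.4, 8.51 and 10.9 CPM in the control and at 30.4, 13.6 and 17.2 CPM with V170M. The V170M library was the higher one in all 3 lines, by most in 287. The difference under nutlin was 0.68 ± 0.24 (95% interval 0.18 to 1.17, edgeR adjusted p = 0.0542). Hist1h2bc was at 393, 78.1 and 34.8 CPM in the control and at 223, 68.5 and 27.2 CPM with V170M under nutlin, a difference of -0.49 ± 0.21 (95% interval -0.92 to -0.07, edgeR adjusted p = 0.102). Hist3h2a was higher with I192S by 0.35 ± 0.12 (0.11 to 0.59, edgeR adjusted p = 0.0976). Over the 5 most counted genes the difference between the mean of the mutants and the control under nutlin had 95% intervals within -0.56 to 0.78, so that a change of 1 log2 unit in either direction lies outside them. For single mutants the intervals of these genes reached from -0.92 to 1.17.

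**Figure D4:**
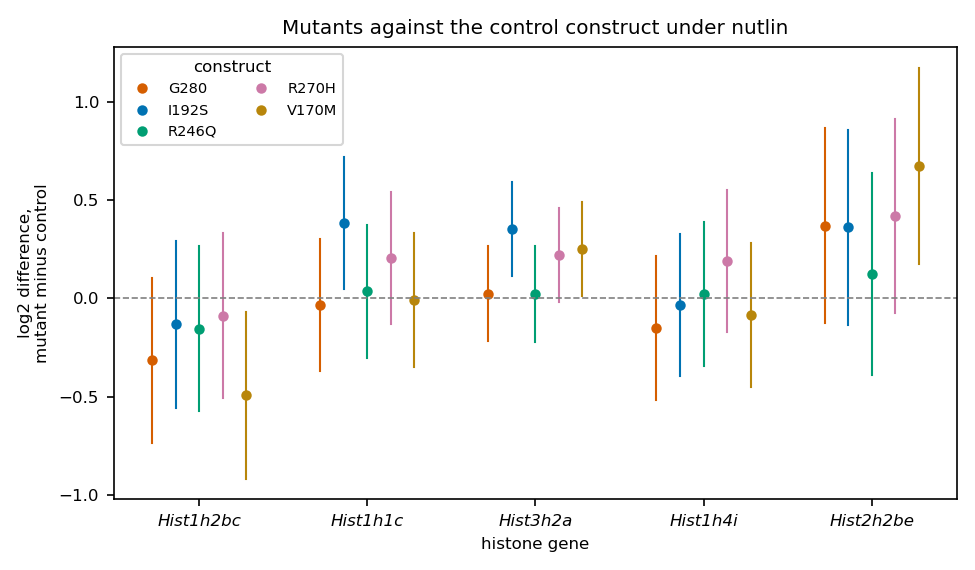
Log2 difference, mutant minus negative control under nutlin, of the 5 histone genes with the most counts. Points are estimates over the 3 lines and bars are 95% intervals; the largest is that of Hist2h2be with V170M (0.68) and the lowest that of Hist1h2bc with V170M (-0.49), and 0 passed the adjusted threshold in edgeR.

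The nutlin response itself was seen with each construct. In the mean of the lines 24 of the 43 histone genes were higher after nutlin with the control construct (26.9% of all genes higher), 31 with R270H (22.6%), 24 with I192S (20.7%), 23 with V170M (15.2%), 23 with R246Q (20.2%) and 22 with G280 (19.4%). When lines were not blocked these counts were 3 for the control and 0 for each mutant, and without the 2 libraries that stood apart R270H had 21 and V170M 18. Whether these counts differ between constructs was not tested, and the response differences above called few genes of any kind.

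Genes that act on histone messages or are expressed with them were taken from lists and are given for the mean of the lines. The 38 S phase and G1/S genes are those that usually rise and fall together with replication-dependent histones. Of these 3 were higher after nutlin and 27 lower (34.3% and 37.4% of all genes), with a median of -0.23 against -0.02 over all genes. By line 1, 5 and 1 were higher and 20, 24 and 22 lower in AH47A, 287 and 621. The largest changes were those of the transcription factors E2f2 (-0.87 ± 0.04) and E2f3 (-0.67 ± 0.03), the flap nuclease Fen1 (-0.67 ± 0.05) and Gins2 of the replicative helicase (-0.66 ± 0.06). Under nutlin 21 of the 38 were higher in the mean of the mutants than in the control and 0 lower (7.22% and 8.76% of all genes), where 0 of the 43 histone genes were called in either direction. The median difference was 0.214 for the 38 and 0.141 for the 43. The spread between libraries (biological coefficient of variation) had a median of 21.2% in the histone genes against 9.51% in all genes. A shift of that size is thus harder to call in the histone genes, and no difference between the lists was tested.

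Replication-independent variants replace the S phase histones outside replication. Of 10 tested out of 13, 7 were lower after nutlin and 1 higher (37.4% and 34.3% of all genes). H2afx, the variant phosphorylated at DNA breaks, had -0.68 ± 0.06, the centromeric Cenpa -0.59 ± 0.04 and H3f3a -0.54 ± 0.05 in the mean of lines, although H2afx rose by 0.26 in AH47A (edgeR adjusted p = 0.0375). The linker variant H1f0, which is known to accumulate in cells that stop dividing, was the one that rose. H1f0 was at 19.7 to 33.1 CPM untreated and 154 to 261 CPM with nutlin in AH47A. In 287 H1f0 was at 14.6 to 21.9 and 148 to 277 CPM, and in 621 at 11.2 to 16.7 and 31.3 to 64.9 CPM. The groups were separate in every line, with rises of 3.02 ± 0.17, 3.32 ± 0.17 and 1.86 ± 0.18 (log2, edgeR adjusted p = 1.13e-08 or smaller).

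Of 22 genes for histone transcription and 3′ processing 6 were higher and 13 lower (34.3% and 37.4% of all genes). Npat was at 90.6 to 100.2 CPM untreated and 112 to 146 CPM with nutlin in AH47A, at 106 to 117 and 191.7 to 218.0 CPM in 287 and at 107 to 116 and 132 to 173 CPM in 621. Npat rose in all lines, by 0.38 ± 0.06, 0.89 ± 0.05 and 0.44 ± 0.05. Slbp was at 102 to 115 CPM untreated and 72.9 to 119 CPM with nutlin in AH47A, at 116 to 131 and 63.8 to 101 CPM in 287 and at 104 to 116 and 78.4 to 126 CPM in 621. Slbp fell by 0.44 ± 0.07 in 287 and by 0.16 ± 0.07 in 621 (edgeR adjusted p = 8.15e-07 and 0.0448), and its change in AH47A was -0.15 ± 0.07 (edgeR adjusted p = 0.0605). The cap-binding subunit Ncbp2 (-0.91 ± 0.05) and its partner Srrt (-0.57 ± 0.03) were lower and the polyadenylation factor Fip1l1 (0.47 ± 0.04) higher in the mean of lines. Among 15 genes of histone message decay 7 were higher and 5 lower (34.3% and 37.4% of all genes). The share of lower ones was near that background. Pnrc1 (1.25 ± 0.06), the uridylyltransferase Zcchc6 (0.66 ± 0.04) and the exonuclease Dis3l2 (0.48 ± 0.04) were higher, and Lsm2 (-0.71 ± 0.04) was lower.

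Among 20 histone chaperones 6 were higher and 11 lower (34.3% and 37.4% of all genes), the share of higher ones being near that background. Nap1l1, a chaperone of H2A and H2B, changed by -0.60 ± 0.03, Chaf1b of the replication-coupled assembly factor by -0.55 ± 0.05, Hira by -0.37 ± 0.03 and Hjurp, the chaperone of Cenpa, by 0.33 ± 0.04. Of 12 genes for poly(A) tail synthesis 4 were higher and 7 lower, against the same shares of all genes, and the share of higher ones was again near them. Cpsf6 changed by -0.63 ± 0.03, Clp1 by -0.50 ± 0.05, the poly(A)-binding Pabpn1 by -0.46 ± 0.03 and the polymerase Papolg by 0.37 ± 0.05. Of the tail-less RNAs 4 were tested, and Snora73a was lower (-1.38 ± 0.11). The summed level of the 20 in the table went from a median of 13.6 to 9.09 CPM in AH47A, 15.5 to 7.22 CPM in 287 and 12.3 to 9.45 CPM in 621, while Rnu12, Snora73b and Snord118 were at 0 throughout. The median of this sum was thus lower with nutlin in each line. The highest sums were nonetheless those of nutlin libraries, 91.2 CPM in 621 R270H and 30.0 CPM in AH47A V170M. A relation of this sum to the histone counts was not tested.

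**Figure D5:**
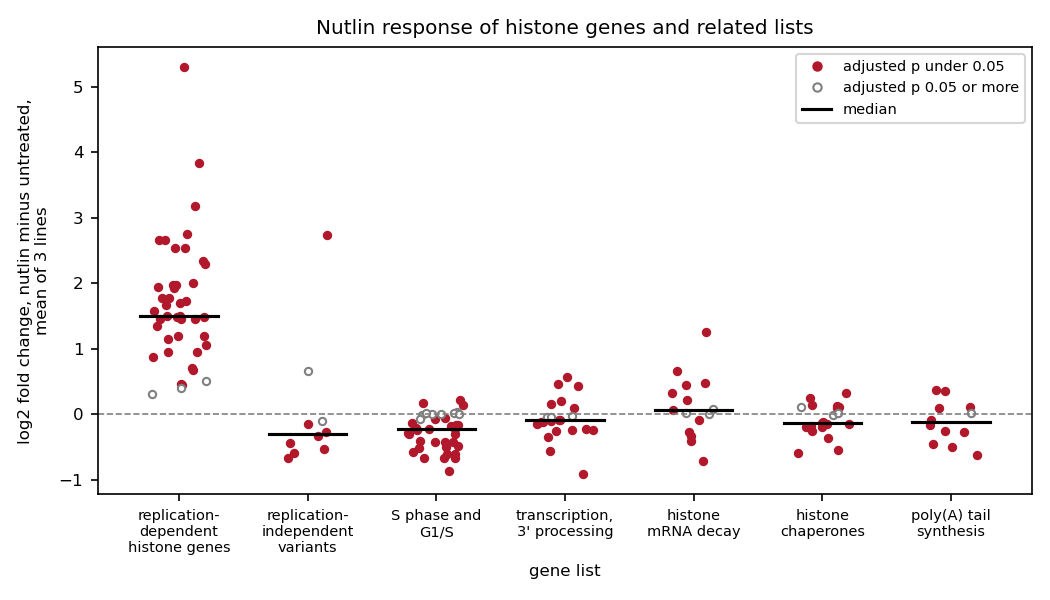
Log2 fold change, nutlin minus untreated, in the mean of 3 lines, for tested genes of 7 lists. Points are genes, filled where the edgeR adjusted p is under 0.05, spread sideways for legibility, and bars are medians. The replication-dependent histone genes have a median of 1.496, the S phase and G1/S genes of -0.23 and the replication-independent variants of -0.31. Among the variants H1f0 lies apart at 2.74. For the 17 histone genes that pass the filter on untreated libraries alone the median is 1.485.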

How the data were processed

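36 RNA-seq libraries were analysed from the counts of reads per gene that the authors deposited, unnormalized, for 27179 mouse genes. The submitters' processing notes name featureCounts, bcl2fastq 1.8.4 and the build mm10 (GRCm38). No aligner, strand setting or rule for multiply mapping reads is given in these sources. All 36 sample columns equalled those of the table of the whole series. Histone genes and all gene lists were chosen with earlier results of these data known. Values by library are given for the 8 tested histone genes with the highest mean CPM, and others are named where called. From each other list up to 4 genes with the largest called change are named, beside Trp53, Cdkn1a, Slbp and Npat; neighbours of the Hist3 cluster, Itgam, Zap70 and single low histone genes were named after their values were seen.

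Counts were scaled by TMM and tested with edgeR 4.0.16 (R 4.3.3; robust glmQLFit) after filterByExpr with a minimum count of 10, which kept 12321 genes and 99.94% of counts. The model held 12 groups, cell line and line by treatment, on 20 residual degrees of freedom. Libraries were paired through the cell line that their labels name: deviations from group means correlated at 0.629 to 0.929 in all 198 same-line pairs, and at -0.113 or below between lines. Every group held a single library of each line, so deviations cancel within a group and negative values between lines are built in. The function was tested on simulated data. The alternatives were DESeq2 1.42.0, library-size scaling, no filter, an additive fit, no replicate block, lines as units, single-line fits and leaving out each library or line; leaving out 2 libraries together was chosen after seeing the data. Ratios of summed counts carry exact 95% intervals, with a floor of 3 counts, for counting error only. Stem-loops were read from GENCODE M21 transcripts and promoters from RefSeq.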

Additional observations from a re-analysis of the deposited data

Results flagged for a closer look

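The nutlin response of 26 of the 43 tested histone genes differed between AH47A, 287 and 621 by the F test over lines. As 60.3% of all genes were called, this count is close to the background. The 10 with the smallest edgeR adjusted p are given here with their log2 changes in that order of lines. Hist3h2a (3.74, 2.10 and 2.39) had an adjusted p of 1.1e-10 and Hist1h4i (2.16, 2.26 and 0.06) one of 6.82e-10. Hist1h1c (3.34, 2.65 and 2.002) followed with 5.13e-06 and Hist1h2bg (3.61, 1.18 and 1.05) with 1.02e-05. The changes of Hist1h3g were 1.70, -0.71 and 0.38 (edgeR adjusted p = 2.12e-05). For Hist1h2ac (3.97, 1.68 and 1.95) the adjusted p was 0.000103, for Hist1h2bh (3.02, 1.62 and 1.25) 0.0003 and for Hist1h2ae (3.69, 1.97 and 0.12) 0.000339. Hist1h1e (1.95, 0.83 and 0.06) gave 0.000549 and Hist1h4k (2.19, 1.64 and 0.20) 0.000625 (edgeR). Hist1h4i, Hist1h4k, Hist1h2ae and Hist1h1e each rose in AH47A and 287 and had values of 0.06 to 0.20 in 621.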

How the results depend on the processing

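No called nutlin response changed direction with DESeq2 or library-size scaling, though DESeq2 lost 2 calls in AH47A, 1 in 287 and 2 in 621. Single-line fits lost 0 in AH47A, 1 in 287 and 3 in 621 (Hist3h2bb-ps, Hist1h1b and Hist1h2bp). Another scaling or filter moved the median of all genes to at most 0.07. In the mean of lines 20 histone genes were higher with 3 lines as units. Without the replicate block, which pairs libraries by line, 38 of the 40 calls in the mean of lines stayed, and per construct the counts were 3 for the control and 0 for each mutant; the block decides those counts by construction, since the lines then enter the spread. V170M had 15 in the additive fit. DESeq2 called 1 gene for single mutants under nutlin. For 621 13 were higher without the 2 libraries named above, near the 26.4% of all genes that were higher in 621 with all libraries. Leaving out single libraries or lines gave 39 to 41 genes higher in AH47A, 21 to 28 in 287, 14 to 22 in 621 and 23 to 41 in the mean of lines, the lowest without AH47A; the F test of lines called 6 to 28, the lowest without AH47A. In 287 0 to 2 were lower: Hist1h3g in 13 of the leave-outs (log2 -0.87 to -0.73) and Hist1h2ak without the I192S nutlin library of 287. Untreated, 287 minus AH47A gave 0 to 1 higher (Hist3h2ba, without either I192S library) and 9 to 12 lower, 621 minus AH47A 0 to 1 higher (Hist3h2bb-ps, without I192S of 621) and 15 to 18 lower, and 621 minus 287 2 higher and 3 to 6 lower. Under nutlin the mean of the mutants gave 0 to 1 (Hist1h2bj, without R246Q of AH47A), and 0 before treatment and in response differences. The mean response of Hist1h3g reversed to -0.19 without AH47A and was 1.06 without 287. Causes of these changes were not tested. At a median of 207 counts per histone gene over 36 libraries, changes in the lower members were detectable in part at this depth.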
